A study of Mus musculus with 17 samples.

Results

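Lung CD44low lines were compared with primary tumor cells of the mammary fat pad (MFP) by bulk RNA-seq, with 2 libraries in each group. These 4 libraries were taken by their labels from 14 bulk libraries, and the whole series holds 17 samples. The genes described are the 13201 of 55450 annotated genes that had at least 1 TPM (a transcript level scaled for transcript length and library total) in at least 2 of the 4 libraries. Of these, 9881 reached 1 TPM in all 4 libraries, 1417 passed only through both lung CD44low libraries and 1015 only through both MFP libraries.

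The cells came from female MMTV-PyMT mice on the FVB/NJ background, in which the mouse mammary tumor virus promoter drives the polyoma middle T oncoprotein mainly in mammary epithelium. Both groups carried that transgene, and no drug treatment is given for either. Lung CD44low cells were dissociated from metastatic lung, enriched for tumor cells in culture by trypsin-based removal of fibroblasts and then collected by flow sorting with a CD44low/EpCAMhigh profile. The MFP libraries are labelled as primary tumor, whereas the methods of the study describe cultured tumor-derived cells, and no CD44 status is given for them. The 2 libraries of a group were clonal isolates from different mice. Lung CD44high cells, the other sorted fraction of that organ, and CD44low cells of lymph node (LN) and bone marrow (BM), from the same transgenic line, served as reference groups. Since the smallest exact permutation p for 2 libraries against 2 is 0.333, adjusted p-values were taken from limma, fitted across all tested genes and the 14 libraries.

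Epithelial cells hold to one another through E-cadherin, claudins and desmosomes and carry keratin filaments, and regulators such as Grhl, Ovol, Elf and Esrp proteins keep this program on. Fibroblasts and other mesenchymal cells instead deposit collagens and proteoglycans, attach through collagen-binding integrins and use regulators of the Snail, Zeb, Twist and Prrx families. In the lung, mesenchymal cells are marked by transcription factors such as Tbx4, Tbx5, Foxf1 and Tcf21. Epithelial tumor cells can switch on part of the mesenchymal program during epithelial-mesenchymal transition.

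The sort markers were checked first. *Epcam* (ENSMUSG00000045394.9, chromosome 17 from 87635979 to 87651129 of mm10), the surface adhesion protein of the EpCAMhigh gate, was listed at 0 TPM in both lung CD44low libraries and at 837 and 725 TPM in MFP. Lung CD44high cells had 0.23 and 0.86 TPM. The labelled EpCAMhigh profile was thus absent from the RNA of the lung lines of both fractions. *Cd44* (ENSMUSG00000005087.17, chromosome 2 from 102811141 to 102901665), the hyaluronan receptor of the other gate, had 12.2 and 21.6 TPM in lung CD44low cells, 399.9 and 209.7 TPM in MFP and 21.9 and 12.1 TPM in lung CD44high cells. It fell by 4.07 on the log2 scale against MFP (standard error 0.44, adjusted p = 2.89e-05). Its difference from lung CD44high cells was -0.00 (standard error 0.44, adjusted p = 0.998), with overlapping libraries, so the CD44 fractions of the lung were not separated by *Cd44* RNA.

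Defining markers of leukocytes, endothelium and alveolar cells were at or near 0, while single markers of other lists were not. The leukocyte marker *Ptprc* had 0.2 and 0.07 TPM and the endothelial marker *Pecam1* 0.15 and 0.02 TPM in lung CD44low cells, and the alveolar factor *Nkx2-1* was listed at 0 in both. Summed over each list, lung CD44low libraries had 0.91 and 0.88 TPM of alveolar and airway markers, 1.61 and 1.48 TPM of endothelial and 4.51 and 5.37 TPM of pericyte markers, where MFP had 61.3 and 31.1, 25.7 and 14.4 and 14.4 and 4.75 TPM. Leukocyte markers summed to 49.4 and 45.8 TPM against 104 and 62.0 TPM in MFP, mostly from lysozyme (*Lyz2*, 35.2 and 34.8 TPM against 0 and 0.09 TPM, which rose by 5.11), and *Adgre1*, *Itgam* and *Tyrobp* were listed at 0. Mesothelial markers summed to 18.4 and 22.2 TPM, against 309 and 414 TPM in MFP. They came nearly all from *Wt1*, which rose (18.2 and 22.1 TPM, listed at 0 in MFP), with *Msln* at 0. Adipocyte markers came to 105 and 58.4 TPM against 1.06 and 0.53 TPM in MFP, nearly all from the fatty acid carrier *Fabp4*, which rose by 5.88, while *Adipoq* was listed at 0. Fibroblast markers summed to 8924 and 9864 TPM in lung CD44low cells and to 40.5 and 20.1 TPM in MFP. In bulk RNA, fewer cells of a type and less RNA per cell cannot be told apart, and the part of any non-tumor cells in the differences was not tested.

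Lung CD44low libraries resembled each other more than MFP. Spearman's rho over the tested genes, a description across genes, was 0.979 within the lung CD44low pair and 0.608 to 0.613 between lung CD44low and MFP libraries. Among the 13201 genes, 1721 (13%) rose and 1175 (8.9%) fell in lung CD44low cells, 21.9% in all. A gene was called where the difference exceeded 2 on the log2(TPM + 1) scale with an adjusted p under 0.05, corrected over every tested gene by the Benjamini-Hochberg method. Of the genes that rose, 324 were listed at 0 in both MFP libraries, and of those that fell, 151 were listed at 0 in both lung CD44low libraries. A gene that passed the TPM filter through 1 group alone could be called in 1 direction only, so a count over such genes does not bear on direction. Genes present in both groups, with 1 TPM in at least 1 library of each, numbered 10769, and of these 916 (8.51%) rose and 645 (5.99%) fell. The pseudocount of 1 understates differences of low genes, and no fold is given against a group listed at 0. The median difference over all genes was -0.03, and dividing TPM by median-ratio factors would raise differences from MFP by 0.13.

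**Figure D1:**
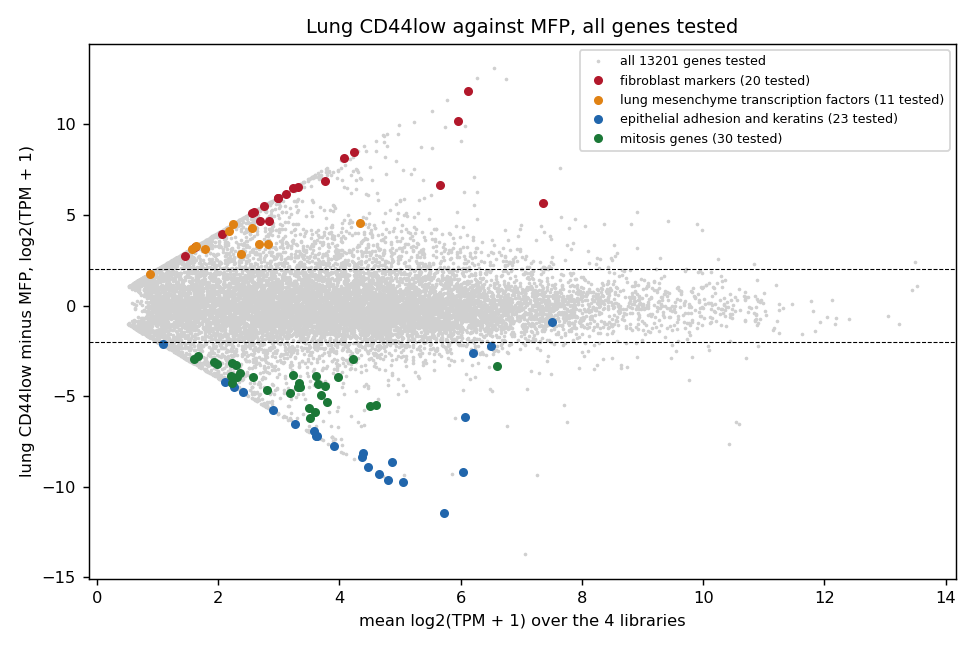
The difference between lung CD44low and MFP cells (vertical axis, log2(TPM + 1)) is plotted against the mean level over the 4 libraries (horizontal axis, log2(TPM + 1)) for 13201 genes in grey, with members of 4 gene lists in colour and dashed lines at 2 and -2. The 20 fibroblast markers tested lie above the upper line, and the 30 mitosis genes and 22 of the 23 epithelial genes below the lower line.

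The largest rises were in genes of secreted matrix proteins. *Mgp* (ENSMUSG00000030218.2, chromosome 6 from 136872435 to 136875823), matrix Gla protein, an inhibitor of calcification, had 8436 and 8004 TPM in lung CD44low cells and 0.98 and 0 TPM in MFP. Its difference of 12.51 (standard error 0.95, adjusted p = 2.09e-06) was the largest among genes not listed at 0 in a group. The proteoglycan decorin (*Dcn*, ENSMUSG00000019929.16, chromosome 10 from 97479609 to 97518143) had 4091 and 4315 TPM, where MFP had 0.32 and 0 TPM, a difference of 11.84 (standard error 0.36, adjusted p = 2.02e-09). Its relative *Prelp* had 2509 and 3049 TPM against 0 and 0.15 TPM and rose by 11.33. Only genes whose libraries did not overlap between the groups were ranked, so this separation was set by the choice of genes.

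The other 9 of the 12 largest rises ranged from 9.08 to 10.71. They were the IGF-binding proteins *Igfbp4* (2317 and 1519.7 TPM, with 0.13 and 0.11 TPM in MFP) and *Igfbp7*, the matricellular proteins *Sparc* and *Ccn5*, the LIM protein *Fhl1*, the chemokine *Cxcl12*, the secreted proteins *Ccdc80* and *Gpx3*, and smooth muscle actin, *Acta2*. *Cxcl12*, the ligand of the homing receptor Cxcr4, had 1687 and 2522 TPM against 2.38 and 0.4 TPM. *Igfbp7* was the least precise of the 12, with a standard error of 1.15, although its lung CD44low libraries lay at 1485 and 1499.5 TPM. That error pools the spread of all 7 groups, and the BM CD44low libraries had 1.04 and 46.2 TPM.

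Among genes listed at 0 in both MFP libraries, biglycan (*Bgn*, ENSMUSG00000031375.17, chromosome X from 73483602 to 73495933), a proteoglycan of collagenous matrix, was highest, with 7905 and 9601 TPM. The antiangiogenic serpin *Serpinf1* had 979 and 1007 TPM, the cysteine dioxygenase *Cdo1* 609 and 772 TPM, and *Cemip*, which takes part in hyaluronan breakdown, 342 and 415 TPM. The noncoding gene model AY036118 had 6233 and 5605 TPM, but 10368 and 502 TPM in the lung CD44high libraries, and its difference from MFP had the wide standard error of 2.12.

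Among genes not listed at 0 in a group, those with the largest falls were mostly epithelial. *Cldn3* (ENSMUSG00000070473.4, chromosome 5 from 134986214 to 134987472), a tight junction claudin, had 0.1 and 0.16 TPM in lung CD44low cells and 984 and 958 TPM in MFP, a difference of -9.75 (standard error 0.17, adjusted p = 5.23e-10). The keratins *Krt18* and *Krt7* fell by 9.17 and 8.64, from 1761 and 1414 TPM and from 724 and 466 TPM. *Cldn7*, the recycling GTPase *Rab25*, the tricellular junction protein *Lsr*, the 14-3-3 protein *Sfn*, the secreted *Wfdc2* and *Serinc2* fell by 7.41 to 9.36. No lung CD44low library held more than 0.39 TPM of any of these 6 genes.

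The prolactin-family hormones *Prl2c3* and *Prl2c2* (proliferins) fell by 13.74 and 9.29. *Prl2c3* had 0.3 and 0 TPM in lung CD44low cells and 18129 and 13372 TPM in MFP. They are near-identical copies, so the split of reads between them is uncertain. *Krt8*, *Epcam*, *Krt14*, *Cldn4* and *Msln* had the highest MFP levels among genes listed at 0 in both lung CD44low libraries, with *Krt8* (ENSMUSG00000049382.10, chromosome 15 from 101996698 to 102004482) at 2966 and 2631 TPM.

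**Figure D2:**
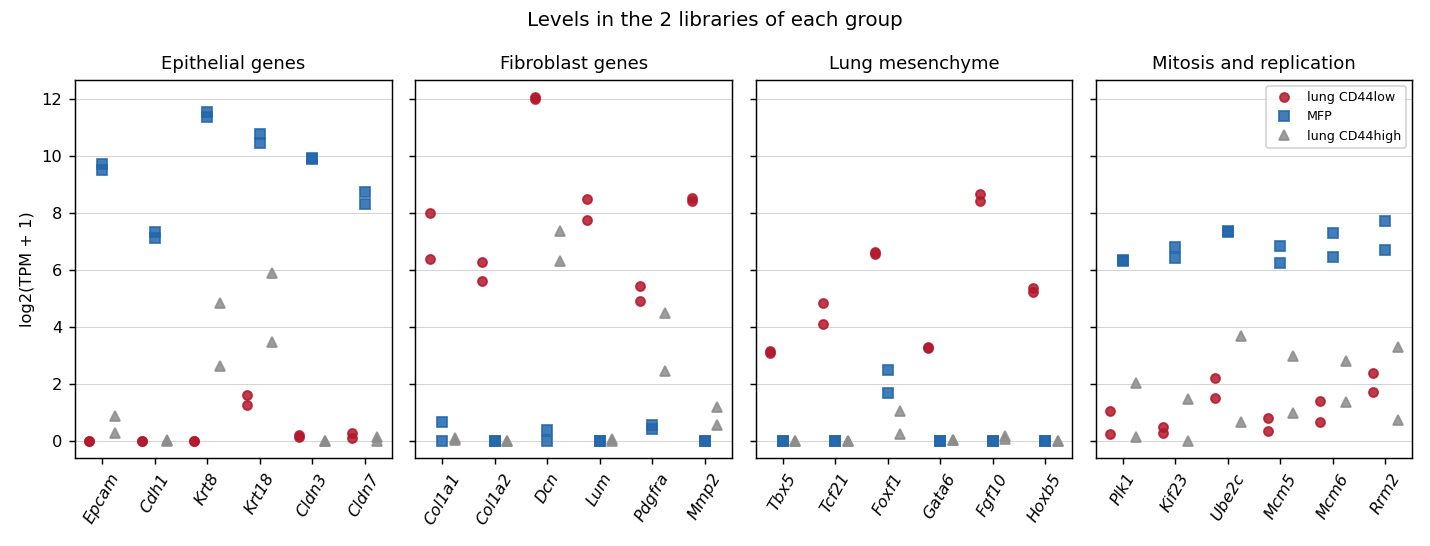
Levels of 24 genes are shown as log2(TPM + 1) on the vertical axis, with 1 point per library for lung CD44low, MFP and lung CD44high cells, each group in its own colour and symbol. The lung CD44low points lie at or near 0 for the epithelial genes, while the mitosis and replication genes are low in both lung groups and high in MFP.

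Of 26 genes of epithelial adhesion and keratins, 23 were tested and 22 fell, beside 8.9% of all genes. Of the 23, 18 passed the filter through MFP alone, and of the other 5, present in both groups, 4 fell. E-cadherin (*Cdh1*) was listed at 0 in lung CD44low cells and had 139 and 159 TPM in MFP. The desmosomal plakin *Dsp* was also listed at 0, where MFP had 18.1 and 26.7 TPM, and plakophilin *Pkp3* had 0 and 0.05 TPM against 135 and 161 TPM. *F11r* and *Jup*, junction components that other cell types share, fell, with differences of -2.63 and -2.21, and kept 29.2 and 27.9 TPM and 32.1 and 51.9 TPM. *Jup* was not called without the first lung CD44low library (-1.88). *Perp*, a desmosome-associated p53 target, was tested and not called, with 119 and 148 TPM against 202 and 302 TPM (difference -0.89, adjusted p = 0.0214).

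The E-box CACCTG, which factors of the Snail and Zeb families can bind, was searched on both strands of RefSeq promoter windows from 250 bases before to 50 bases after the transcription start. It was present for 15 of the 18 list members with a window (83.3%) and for 22.6% of all 27025 genes with one. The windows of *Krt8* (chr15:102004293-102004592, minus strand, GRCm38.p6) and *Cldn3* (chr5:134985964-134986263, plus strand) are shown because these called members had the largest falls among those with the motif, which is in capitals on either strand.
Krt8: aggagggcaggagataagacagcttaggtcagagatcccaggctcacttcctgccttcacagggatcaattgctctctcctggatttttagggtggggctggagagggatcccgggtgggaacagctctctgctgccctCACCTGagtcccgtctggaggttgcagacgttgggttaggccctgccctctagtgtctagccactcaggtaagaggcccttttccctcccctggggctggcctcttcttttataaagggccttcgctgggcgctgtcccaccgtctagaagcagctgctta
Cldn3: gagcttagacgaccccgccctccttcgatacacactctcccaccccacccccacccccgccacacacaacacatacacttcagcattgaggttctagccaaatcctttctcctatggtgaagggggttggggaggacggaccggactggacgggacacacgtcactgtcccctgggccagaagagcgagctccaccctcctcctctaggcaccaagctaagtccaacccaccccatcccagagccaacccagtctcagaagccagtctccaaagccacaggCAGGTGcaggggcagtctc
A match describes letters in the window and does not show that a factor binds there.

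Most tested regulators of the epithelial state were lower too. Of 18 listed, 15 were tested and 11 fell, beside 8.9% of all genes. MFP alone carried 12 of the 15 through the filter, which fixed their direction. Both members present in both groups fell, beside 5.99% of all such genes. *Grhl2*, an activator of *Cdh1*, was listed at 0 in lung CD44low cells and had 14.5 and 17.4 TPM in MFP, and the splicing regulator *Esrp1* was listed at 0 where MFP had 20.9 and 21.3 TPM. *Klf5* fell by 4.08. The luminal factor *Gata3* had 2.14 and 2.00 TPM against 41.4 and 36.6 TPM, a difference of -3.70 (standard error 0.41, adjusted p = 4.01e-05). *Trp63*, a basal factor, had 1.65 and 1.80 TPM where MFP was listed at 0, and it was not called.

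The 20 tested of 22 fibroblast markers rose, beside 13% of all genes, but 17 of them passed the filter through lung CD44low cells alone, which fixed their direction. The other 3 were *Vim*, *Sparc* and *Pcolce*, a procollagen processing enhancer with 505 and 506 TPM against 3.92 and 4.11 TPM. The fibrillar collagen *Col1a1* (ENSMUSG00000001506.10, chromosome 11 from 94936224 to 94953042) had 83.3 and 257 TPM against 0.58 and 0 TPM, a difference of 6.87 (standard error 0.52, adjusted p = 2.13e-06), with both lung CD44low libraries above MFP but apart from each other. *Col1a2* had 47.8 and 77.8 TPM, the proteoglycan *Lum* 362 and 217 TPM and the surface marker *Thy1* 29.1 and 68.0 TPM, each listed at 0 in MFP. The growth factor receptors *Pdgfra* (29.0 and 43.0 TPM against 0.35 and 0.48 TPM) and *Pdgfrb* (47.3 and 79.4 TPM against 0.02 and 0 TPM) rose by 4.68 and 5.95. *Vim*, the intermediate filament of mesenchymal cells, had 1086 and 1215 TPM against 33.5 and 14.5 TPM. *Fap* and *Dpt*, markers of fibroblast subsets, did not reach 1 TPM in any lung CD44low library.

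Contractile genes of smooth muscle and myofibroblasts were partly present. Of 14 members, 10 were tested and 7 rose, beside 13% of all genes. Of the 10, 7 passed the filter through lung CD44low cells alone, which fixed their direction. Of the other 3, *Cald1* rose and *Tpm1* and *Smtn* were not called, beside 8.51% of all genes present in both groups that rose. *Acta2* (ENSMUSG00000035783.9, chromosome 19 from 34241090 to 34255590) had 657 and 711 TPM against 0.06 and 0 TPM, a difference of 9.38 (standard error 0.31, adjusted p = 3.66e-09). The myosin light chain *Myl9* had 173 and 178 TPM against 0 and 0.41 TPM. *Cald1*, which binds actin, was highest of the list at 3447 and 3401 TPM against 162 and 112 TPM. The smooth muscle genes *Myh11*, *Des* and *Actg2* stayed under 1 TPM in both lung CD44low libraries.

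Among 13 mesenchymal transcription factors, 8 rose and 0 fell, beside 13% and 8.9% of all genes. Lung CD44low cells alone carried 6 through the filter, which fixed their direction. Of the other 7, 4 rose (*Snai1*, *Snai2*, *Zeb2* and *Tcf4*), beside 8.51% of all genes present in both groups. *Prrx2* (ENSMUSG00000039476.13, chromosome 2 from 30834972 to 30881251), a homeobox factor of mesenchyme, had 201 and 183 TPM and was listed at 0 in MFP. *Prrx1* had 64.6 and 78.6 TPM against 0.1 and 0.02 TPM (difference 6.09, adjusted p = 1.05e-06), and *Zeb1*, a repressor of *Cdh1*, 46.1 and 49.98 TPM against 0.61 and 0.2 TPM (difference 5.14, adjusted p = 9.46e-06). *Snai1* and *Snai2* rose by 3.01 and 2.64. *Twist1* had 5.77 and 7.55 TPM against 5.25 and 4.47 TPM and was not called (difference 0.38).

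Of 15 transcription factors of lung mesenchyme, 11 were tested and 10 rose, beside 13% of all genes. Of the 11, 7 passed the filter through lung CD44low cells alone, which fixed their direction. The other 4 rose, beside 8.51% of all genes present in both groups. *Tbx5* (ENSMUSG00000018263.11, chromosome 5 from 119832668 to 119885219), a factor of lung bud mesenchyme, had 7.99 and 7.58 TPM and was listed at 0 in MFP, as were *Tcf21* (16.2 and 27.6 TPM) and *Gata6* (8.53 and 8.88 TPM). *Foxf1*, a target of hedgehog signalling in lung mesenchyme, had 94.8 and 98.5 TPM against 4.59 and 2.20 TPM, a difference of 4.53 (standard error 0.44, adjusted p = 1.35e-05). The hedgehog effectors *Gli2* and *Gli3* rose by 3.11 and 2.83, while *Gli1*, a transcript that hedgehog signalling induces, had 0.01 and 0 TPM. *Tbx4* had 2.31 and 2.41 TPM with MFP listed at 0 and stayed under the limit of 2.

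Cell-matrix adhesion genes were called in both directions. Of 24 genes of the basement membrane and its receptors, 22 were tested, 8 rose and 8 fell, beside 13% and 8.9% of all genes. Among the 11 present in both groups 2 rose and 4 fell, beside 8.51% and 5.99% of all such genes. Integrin alpha 11 (*Itga11*, ENSMUSG00000032243.8, chromosome 9 from 62677826 to 62783982), a receptor for fibrillar collagen, had 251 and 299.99 TPM against 0 and 0.03 TPM, a difference of 8.08 (standard error 0.21, adjusted p = 1.01e-09). The collagen receptors *Itga1* and *Itga2* rose by 5.39 and 4.49, and *Itgb5* by 4.75. The laminin-binding subunits *Itga6*, *Itgb4* and *Itga3* fell. *Itga6* had 0.01 and 0.13 TPM against 24.1 and 21.96 TPM, its partner *Itgb4* 0.02 and 0.06 TPM against 141 and 99.97 TPM and *Itga3* 5.62 and 4.53 TPM against 139.7 and 115 TPM. The laminin receptor subunit *Itga7* (2.95 and 3.34 TPM against 1.89 and 0.76 TPM) and the shared partner *Itgb1* (307 and 417 TPM against 189 and 165 TPM) were not called, with differences of 0.88 and 1.02.

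Laminin chains were divided as well. *Lama3* and *Lamb3*, chains of epithelial laminin, fell. *Lama3* was listed at 0 in lung CD44low cells and had 14.4 and 16.7 TPM in MFP, and *Lamb3* had 0.05 and 0 TPM against 74.2 and 90.5 TPM, a difference of -6.34. *Lama4* and *Lamb2*, chains of mesenchymal and vascular laminins, rose by 2.55 and 3.61. *Nid1*, which links laminin to collagen IV, had 11.1 and 30.5 TPM and was listed at 0 in MFP. Of the main collagen IV chains, *Col4a1* fell by 2.16 (-1.70 and not called without the first lung CD44low library) and *Col4a2* had 20.8 and 28.7 TPM against 24.1 and 21.2 TPM (adjusted p = 0.892).

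**Figure D3:**
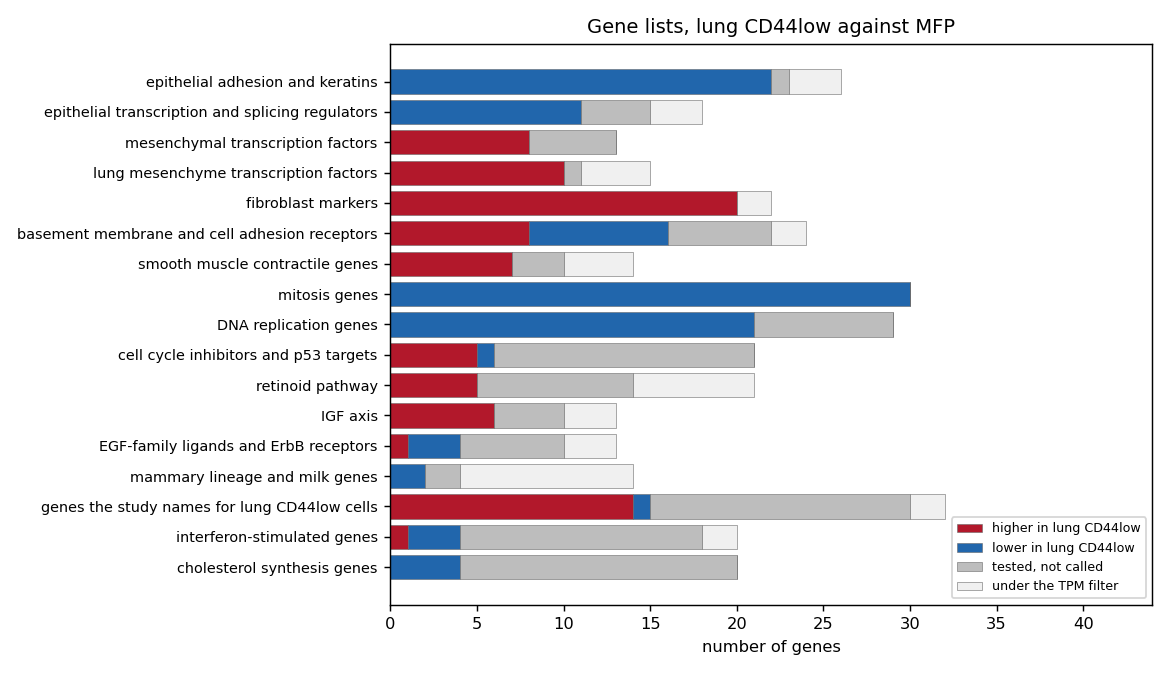
For 17 gene lists, the bars count members higher or lower in lung CD44low than in MFP cells, tested but not called, or under the TPM filter, with the number of genes on the horizontal axis. Fibroblast markers and mitosis genes were called in 1 direction for every tested member, a direction that the filter fixed for 17 of 20 and 13 of 30, and the basement membrane list was divided at 8 and 8.

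The 30 mitosis genes were all tested and fell. For 13 of them only MFP reached 1 TPM, and the other 17, present in both groups, fell, beside 5.99% of genes present in both. *Kif23*, a kinesin of the cytokinetic midbody, had 0.23 and 0.42 TPM against 110.2 and 84.8 TPM (difference -6.21, standard error 0.86, adjusted p = 0.00019). The mitotic kinase *Plk1* had 0.19 and 1.09 TPM against 79.3 and 80.2 TPM (difference -5.68, standard error 0.93, adjusted p = 0.000595), and *Ccna2*, cyclin A, fell by 5.87. *Cdk1*, the kinase of mitotic entry, fell by 3.32 and kept the highest level of the list, 31.9 and 27.9 TPM against 356 and 264 TPM. Its adjusted p rose to 0.0616 and 0.0729 without the first or second lung CD44low library and to 0.0702 without the first MFP library. Both lung CD44low libraries lay under both MFP libraries for these 4 genes. With 2 libraries in each group, such separation is a description only. Without any 1 of the 4 libraries, 26 to 28 of the 30 genes were called. Summed over the list, lung CD44low cells had 56.5 and 72.2 TPM and MFP 1795 and 1700.5 TPM.

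Of 29 DNA replication genes tested, 21 fell, beside 8.9% of all genes. Among the 25 present in both groups 17 fell, beside 5.99% of all such genes, and 4 passed the filter through MFP alone. At an adjusted p under 0.05 without the limit on size, 29 of 29 were lower, beside 27.3% of all genes. The replicative helicase subunits *Mcm5* and *Mcm6* fell by 5.95 and 5.85, from 113 and 74.3 TPM and from 158 and 87.4 TPM. *Mcm2*, *Mcm3*, *Mcm4* and *Mcm7* fell by 2.73 to 3.89. *Pcna*, the sliding clamp, fell by 2.63 and kept 46.3 and 40.6 TPM. The 8 members under the limit, the 4 *Gins* genes, *Tyms*, *Dut*, *Pola1* and *Rfc4*, had differences from -1.90 to -0.73.

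The element TTTGAA, a form of the cell cycle homology region that DREAM and MuvB complexes bind, lay on either strand in 19 of 25 mitosis promoters (76%) and for 20.2% of all genes. CCAAT, the binding sequence of NF-Y, lay in 20 of 25 (80%) and for 41.1% of all genes. E2F sites, searched as TTCCCGC or TTGGCGC, lay in 14 of 23 replication promoters (60.9%) and for 7.79% of all genes. The windows of *Kif23* (chr9:61946750-61947049, minus strand, GRCm38.p6) and *Plk1* (chr7:122159185-122159484, plus strand) are shown as those of the mitosis genes with the largest falls that held both TTTGAA and CCAAT, given in capitals on either strand.
Kif23: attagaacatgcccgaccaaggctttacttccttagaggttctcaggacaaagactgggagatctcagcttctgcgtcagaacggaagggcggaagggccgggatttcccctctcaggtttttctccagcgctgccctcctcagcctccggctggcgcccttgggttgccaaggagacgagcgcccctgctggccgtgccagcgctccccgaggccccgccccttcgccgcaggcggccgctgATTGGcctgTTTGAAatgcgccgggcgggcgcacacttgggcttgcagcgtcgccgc
Plk1: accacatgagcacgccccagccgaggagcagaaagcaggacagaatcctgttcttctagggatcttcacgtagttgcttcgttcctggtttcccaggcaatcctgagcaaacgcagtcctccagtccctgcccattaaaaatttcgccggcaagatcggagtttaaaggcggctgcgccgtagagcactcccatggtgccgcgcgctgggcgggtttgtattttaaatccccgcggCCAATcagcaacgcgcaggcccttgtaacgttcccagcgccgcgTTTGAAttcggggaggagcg
For fibroblast markers, the AP-1 element TGANTCA lay in 1 of 13 windows (7.69%) and for 8.97% of all genes.

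Inhibitors of the cell cycle and p53 targets were mostly not called. Of 21 tested, 5 rose and 1 fell, beside 21.9% of all genes called, and 3 rose and 1 fell among the 19 present in both groups. *Cdkn2c*, an inhibitor of Cdk4 and Cdk6, had 59.7 and 51.1 TPM against 2.21 and 3.59 TPM (difference 3.87, adjusted p = 2.89e-05). *Cdkn1c* rose by 2.90, and the p53 targets *Phlda3*, *Gdf15* and *Sesn1* by 2.90, 3.53 and 2.93. *Cdkn1a*, the p21 gene, had 345 and 351 TPM against 325 and 226 TPM (difference 0.36, adjusted p = 0.516), and *Trp53* itself 110.4 and 119.6 TPM against 272 and 213 TPM (difference -1.06). *Plk2* fell by 2.11, but was not called without the first lung CD44low (-1.69) or the second MFP library (-1.98), after median-ratio scaling (-1.98) or after removal of the GC and length trend (-1.95).

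Growth factor genes differed by ligand and receptor. Of 13 genes of the IGF axis, 10 were tested and 6 rose, beside 13% of all genes, of which *Igf2* and *Igfbp7* were present in both groups and the others passed the filter through lung CD44low cells alone. These were the ligands *Igf1* (80.2 and 92.5 TPM, listed at 0 in MFP) and *Igf2* (196 and 224 TPM against 1.76 and 0.13 TPM), the binding proteins *Igfbp2*, *Igfbp4* and *Igfbp7*, and the RNA-binding protein *Igf2bp3*. The receptor *Igf1r* had 8.23 and 10.4 TPM against 4.06 and 4.79 TPM and was not called (difference 0.93). In the EGF family 10 of 13 genes were tested, 1 rose and 3 fell, beside 13% and 8.9% of all genes, and those 3 passed the filter through MFP alone. The ligands *Areg* and *Epgn* fell, with differences of -7.36 and -5.12, *Areg* from 297 and 127 TPM. The receptor *Erbb3* was listed at 0, where MFP had 9.76 and 18.5 TPM. *Nrg1*, the neuregulin ligand of Erbb3 and Erbb4, had 64.8 and 81.6 TPM against 1.89 and 1.28 TPM and rose by 4.84, and *Egfr* had 40.5 and 42.0 TPM against 11.9 and 10.7 TPM (difference 1.78, not called).

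In the retinoid pathway, 14 of 21 genes were tested and 5 rose, beside 13% of all genes, and these 5 were among the 6 that passed the filter through lung CD44low cells alone. The 8 present in both groups had differences of 0.81 to 1.77 and stayed under the limit of 2, while 8.51% of all genes present in both rose. The genes that rose included *Aldh1a1*, which makes retinoic acid from retinal, *Cyp26b1*, which degrades retinoic acid (39.8 and 67.0 TPM, listed at 0 in MFP), and the responders *Rarres1* and *Rarres2*. The receptors *Rara*, *Rarg*, *Rxra* and *Rxrb* had differences of 1.02 to 1.77 and were not called. *Stra6*, *Crabp1* and *Rbp4* stayed under 1 TPM in both lung CD44low libraries.

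Other lists were called in part, beside the 21.9% of all genes. Of 18 interferon-stimulated genes tested, 1 rose (*Ifit3*, 36.1 and 32.9 TPM against 0.78 and 1.03 TPM) and 3 fell (*Oas1a*, *Usp18* and *Psmb9*, the last 2 not called without the first MFP library). Of 20 cholesterol synthesis genes, 4 fell, led by the reductase *Dhcr7* (6.59 and 4.80 TPM against 204 and 151 TPM). The 6 milk protein genes stayed under 1 TPM in both groups, and of 14 mammary genes 4 were tested and 2 fell, the transcription factor *Trps1* by 2.12 and the cytokine *Lif* by 2.65, though *Trps1* lay between -1.96 and -1.99 without the first lung CD44low or the second MFP library and at -1.96 after median-ratio scaling, and was then not called. Of 32 genes that the study names for lung CD44low cells, 30 were tested, 14 rose and 1 fell, and 10 of the 30 passed the filter through lung CD44low cells alone. The study chose that list on these samples, so its count is not independent evidence. Its lower member, the surface glycoprotein *Cd24a*, had 4.88 and 7.24 TPM against 586 and 452 TPM.

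The contrast with lung CD44high cells asked which genes differ between the CD44 fractions of 1 organ. Of 12773 genes, 1372 (10.7%) were higher and 389 (3.05%) lower in lung CD44low cells, 13.8% in all. It shares the lung CD44low libraries with the comparison with MFP, so the calls are not independent. Most epithelial adhesion genes and keratins were low in both lung groups, with 7 of 26 tested and 3 lower in lung CD44low cells. This list summed to 523 and 730 TPM in lung CD44high and 190.5 and 238 TPM in lung CD44low cells. Epithelial regulators were not low in lung CD44high cells, with a sum of 210 and 321 TPM against 190 and 250 TPM in MFP. *Cdh1*, *Cldn3* and *Krt14* had at most 0.03 TPM in lung CD44high cells. Those 3 lower genes were *Krt8* (5.26 and 27.8 TPM in lung CD44high cells), *Krt18* (10.1 and 58.9 TPM) and the protease inhibitor *Spint2* (186 and 154 TPM). Of 17 mitosis genes tested, limma called 0 and 0 had an unadjusted p under 0.05, with a median difference of -0.24. This rested on both lung CD44high libraries, since *Prc1* was called lower in lung CD44low cells without the first (-2.38, adjusted p = 0.0215) and *Cdk1* higher without the second (3.55, adjusted p = 0.00715). The lung CD44high libraries lay on both sides of the lung CD44low libraries for that list, at 17.3 and 138 TPM.

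Most fibroblast markers differed between the lung fractions, while for most lung mesenchyme factors the filter fixed the direction. Of 20 fibroblast markers, 14 were higher in lung CD44low than in lung CD44high cells, and of 11 lung mesenchyme factors 7 were higher, beside 10.7% of all genes. Of those tested, 6 markers and 7 factors passed the filter through lung CD44low cells alone. Among the members present in both lung groups 8 of 14 and 1 of 4 were higher, beside 6.78% of all such genes. *Col1a2*, *Thy1*, *Tbx5* and *Tcf21* were listed at 0 in both lung CD44high libraries. *Col6a1*, *Zeb1*, *Osr1* and *Vim* were not called, with differences of 0.26, 0.01, -0.14 and -0.75. Of 10 contractile genes, 8 were higher in lung CD44low cells, 3 of them among the 4 present in both lung groups. Of 21 cell cycle inhibitors and p53 targets, 7 were higher and 0 lower, with 3 of the 16 present in both lung groups higher. *Cdkn1a* and *Cdkn2b*, inhibitors not called against MFP, were higher than in lung CD44high cells by 4.14 and 6.05. Among genes not listed at 0 in a group, the largest rises were *Bgn*, *Igfbp7*, *Serpinf1*, *Cdo1* and *Ccdc80*, by 8.68 to 12.01.

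Leaving out genes listed at 0 in a group, those lower in lung CD44low than in lung CD44high cells were led by the heparan sulfate transferase *Hs3st1*, the methyltransferase *Inmt*, *Gata3*, the coronin *Coro6* and the synaptotagmin *Syt13*, with differences of -6.98 to -6.02. *Gata3* had 187 and 305 TPM in lung CD44high cells, above both MFP libraries. *Inmt* was listed at 0 in MFP, with 430.0 and 65.9 TPM in lung CD44high cells. The progesterone and estrogen receptors *Pgr* and *Esr1* were also lower, with differences of -2.88 and -2.11, and *Esr1* was not called without the first lung CD44low (-1.94) or the first lung CD44high library (-1.68).

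Against the CD44low cells of LN and BM, with 4 libraries, 1599 (11.4%) of 14010 genes were higher and 939 (6.7%) lower, 18.1% in all. Here 16 of 21 epithelial adhesion genes and keratins were lower, 15 of 20 fibroblast markers and 8 of 11 lung mesenchyme factors higher, and 30 of 30 mitosis genes lower. Members present in both groups were lower for 2 of 5 epithelial genes and 17 of 17 mitosis genes, and higher for 7 of 12 fibroblast markers and 2 of 4 lung mesenchyme factors, beside 3.63% lower and 9.3% higher of all such genes. For mitosis genes the second LN CD44low library stood apart, with a summed 734 TPM against 5335 to 6884 TPM in the other three, and without it the 30 genes were still called lower. Among genes not listed at 0 in a group, the largest rises were *Dcn*, *Cxcl12*, *Bgn*, the morphogen *Bmp4* and the collagen cross-linking enzyme *Lox*, by 9.66 to 11.54. Under the same limit the largest falls were *Cldn3*, the survivin gene *Birc5* (345 TPM in that LN library and 2496 to 4172 TPM in the others), *Wfdc2*, *Krt18* and *Unc13d*, with differences of -9.14 to -7.02. *Krt8* and *Epcam*, listed at 0 in lung CD44low cells, lay at 498 to 1926 TPM and 315 to 794 TPM over the LN and BM CD44low libraries. *Bmp4* had 840.2 and 1055 TPM in lung CD44low cells and at most 0.08 TPM in an LN or BM CD44low library. Summed fibroblast markers were lowest in MFP, lay at 1051 to 1811 TPM over the LN and BM libraries of both fractions and at 2679 and 3572 TPM in lung CD44high cells, and were highest in lung CD44low cells, with no overlap between these sets.

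**Figure D4:**
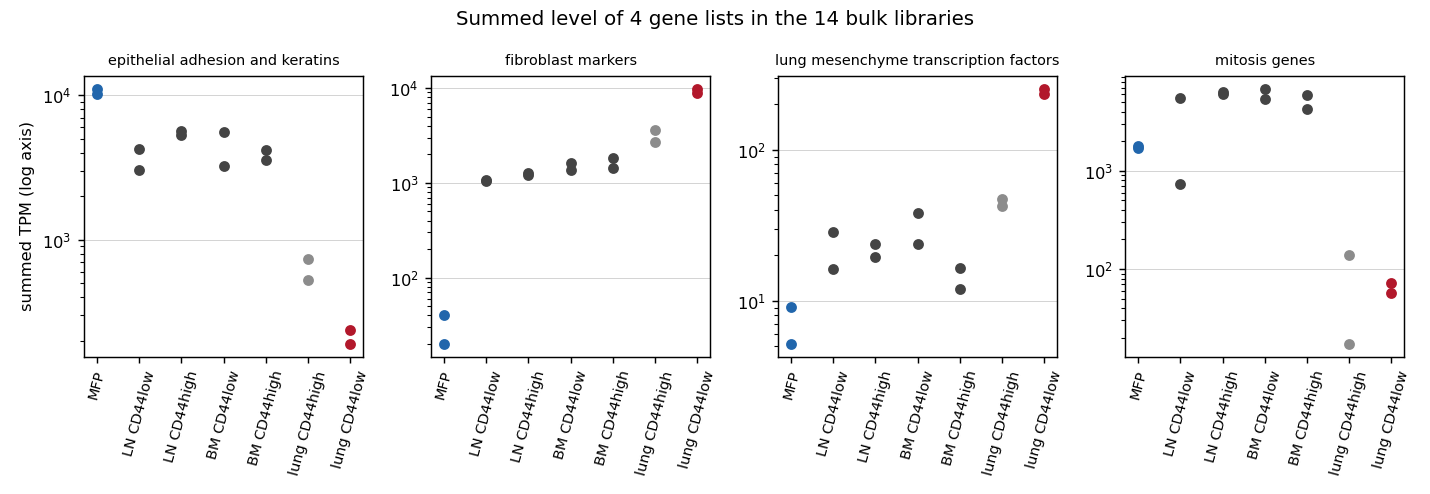
Summed TPM of gene lists (log axis) is plotted for each of the 14 bulk libraries by group, 1 point per library. Both lung CD44low libraries are above every other library for fibroblast markers (8924 and 9864 TPM) and lung mesenchyme factors (235 and 254 TPM) and under every other library for epithelial genes (190.5 and 238 TPM), while 1 lung CD44high library is lowest for mitosis genes.

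Single-cell libraries of lung CD44low, lung CD44high and LN CD44high lines, 1 each, gave a further measurement, with no MFP library and no test. In the lung CD44low library 348 of 2808 barcodes were kept as cells, with more than 250 genes and under 10% mitochondrial counts. The lung CD44high and LN CD44high libraries gave 1236 of 3623 and 2562 of 3297. Median counts per cell were 4011, 557 and 585, so counts were summed over cells and are given per 10000 with exact Poisson 95% intervals, which cover counting error only. *Epcam* gave 0 of 2220759 counts in lung CD44low cells (upper bound 0.0166 per 10000), 0.0136 (0.0028 to 0.0397) in lung CD44high and 1.77 (1.66 to 1.89) in LN CD44high cells. *Cdh1* gave 0 counts in both lung libraries and 0.371 per 10000 in LN CD44high cells. The whole list of epithelial adhesion genes and keratins summed to 5.94 in lung CD44low, 9.95 in lung CD44high and 20.3 in LN CD44high cells. In bulk this list had 190.5 and 238 TPM in lung CD44low and 5691 and 5307 TPM in LN CD44high libraries. *Cd44* was at 8.51 (8.13 to 8.90) in lung CD44low and 4.99 (4.70 to 5.29) in lung CD44high cells, so the library labelled CD44low had the higher level.

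Contractile genes summed to 104 per 10000 in the lung CD44low library, 9.30 in the lung CD44high library and 10.1 in the LN CD44high library. Among single genes *Acta2* was at 45.6 and 0.0588 per 10000, *Mgp* at 25.7 and 1.99, and *Col1a2* at 14.4 with 0 counts in lung CD44high cells. *Bgn* was at 11.6 in lung CD44low cells and gave 1 count in lung CD44high cells. Fibroblast markers summed to 82.7 (81.5 to 83.9) in lung CD44low, 46.5 in lung CD44high and 10.6 in LN CD44high cells, and mitosis genes to 10.4, 33.2 and 27.4. Some values departed from bulk. Retinoid genes summed to 3.52 per 10000 in lung CD44low and 3.63 in lung CD44high cells. In bulk they had 1071 and 1115 TPM in lung CD44low and 249 and 178 TPM in lung CD44high libraries. Lung CD44high cells had the highest single-cell mitosis sum, whereas in bulk they had 17.3 and 138 TPM, near lung CD44low cells, and LN CD44high cells 6057 and 6371 TPM. *Lum* and *Tcf21* gave 0 counts and *Dcn* 0.0991 per 10000 in lung CD44low cells, where lung CD44high cells gave 0 counts of *Lum* and *Dcn*, although bulk *Dcn* had 4091 and 4315 TPM. *Prl2c3* was at 19.4 (18.8 to 19.96) in lung CD44low cells, where the bulk libraries had 0.3 and 0 TPM. The single-cell and bulk libraries were made and quantified in different ways, and the part of this in the departures was not tested.

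**Figure D5:**
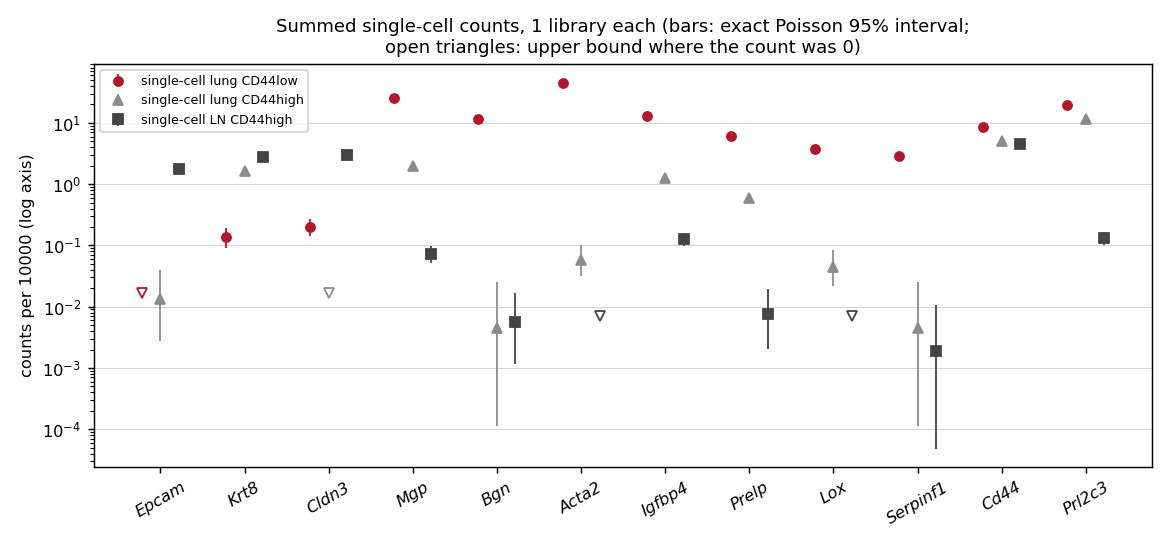
Summed counts per 10000 (log axis) of named genes are drawn for the 3 single-cell libraries, with exact Poisson 95% intervals as bars and a marker at the upper bound where no count was found. *Mgp*, *Bgn*, *Acta2*, *Igfbp4*, *Prelp*, *Lox* and *Serpinf1* are highest in lung CD44low cells, for which *Epcam* has only an upper bound of 0.0166.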

How the data were processed

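Bulk RNA-seq of 14 libraries in 7 groups of 2 and single-cell RNA-seq of 3 libraries were used. The authors prepared bulk libraries by a SMART-seq2 variant, used STAR to align reads to mm10 and deposited RSEM estimates as TPM over GENCODE genes. TPM keeps no total, so depth per library is unknown. The authors deposited single-cell counts per gene and barcode from kallisto, with running numbers in place of barcode sequences, so barcodes shared between libraries could not be counted. Doublets were not called here. Gene positions come from the GENCODE vM21 annotation of mm10, in which all 55450 gene IDs matched.

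Genes with at least 1 TPM in 2 or more of the libraries compared were tested on log2(TPM + 1) with limma 3.58.1 (R 4.3.3, moderated with a trend) over the 7 groups, which left 7 residual degrees of freedom. Called genes differed by more than 2 with p under 0.05 after Benjamini-Hochberg adjustment. The procedure was tested on simulated data for the comparison with MFP, in which 177 of 200 genes given a log2 shift of 3 (88.5%) were recovered with 4 false calls among 13201 genes. Named genes included the 12 largest called rises and falls against MFP and the 5 largest in each direction in the other comparisons. These were taken from genes without a group at 0 and with no overlap between the libraries of the groups. The 5 highest called genes listed at 0 in the other group against MFP, in each direction, and list members were named as well. Unnamed gene models, ribosomal protein, mitochondrial, pseudogene and predicted genes were passed over, and some genes are not reported here. Members and lists were chosen with earlier results of these data known. Alternatives were another pseudocount, filters, scaling, a replicate block, the compared libraries alone, GC and length correction, unadjusted p and each library left out. Single-cell intervals used scipy 1.17.1, pandas 2.3.3 and numpy 2.4.6 in Python 3.11.15, and figures matplotlib 3.10.9. P-values rest on the spread between the 2 isolates of a group, pooled over the 7 groups and moderated across genes. In BM CD44low, 8.01% of the genes tested against MFP differed by more than 2 between isolates. That share was 0.492% in lung CD44low and 0.811% in MFP.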

Additional observations from a re-analysis of the deposited data

Results flagged for a closer look

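The groups of 2 libraries are too small for a check for a library far from the others. Over all genes tested in both comparisons, which share the lung CD44low libraries, 15 called higher and 25 called lower against MFP had the opposite call against lung CD44high cells. Among members of the lists and families with no group listed at 0, for 2 genes the lung CD44low level lay between MFP and lung CD44high cells, with called differences of opposite sign. The basement membrane collagen *Col4a1* had 11.8 and 23.0 TPM in lung CD44low, 82.1 and 72.5 TPM in MFP and 0.33 and 0.97 TPM in lung CD44high cells, differences of -2.16 from MFP and 3.44 from lung CD44high cells. The first of these lost its call without the first lung CD44low library (-1.70, adjusted p 0.0815). The metal-binding metallothionein *Mt1* had 78.6 and 95 TPM, 721 and 1325 TPM and 13.7 and 20.4 TPM, differences of -3.49 and 2.30. The difference of *Mt1* from lung CD44high cells lost its call (adjusted p 0.0563 to 0.0794) without either lung CD44low library or the first lung CD44high library. The cause was not tested.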

How the results depend on the processing

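The direction and the call rule held for most genes refitted: against MFP, 2502 of 2528 refits of 195 genes kept their call, 22 lost it and 4 gained it, with no change of sign among called genes. Median-ratio scaling ended the calls of *Plk2* (-1.98) and *Trps1* (-1.96), removal of the GC and length trend that of *Plk2* (-1.95), and a pseudocount of 0.1 gave calls for *Tbx4*, *Trp63* and *Pola1* (4.62, 4.19 and -2.21). Counts of calls against MFP were 2896 in the reported fit, 3967 with a pseudocount of 0.1, 2592 with a filter of 5 TPM, 2822 after median-ratio scaling, 2942 with the 4 libraries alone, 2873 after removal of the GC and length trend, 2929 with unadjusted p and 2663 to 2779 without 1 library (higher 1437 to 1654, lower 1043 to 1226). With a pseudocount of 0.1, lower calls against lung CD44high cells rose from 389 to 688, calls against LN and BM CD44low cells from 2538 to 3828, and the lower ones among them from 939 to 1624, and the pseudocount by construction widens differences of low genes. Without 1 library, calls against lung CD44high cells numbered 1445 to 1639 (higher 1050 to 1246, lower 321 to 469) and against LN and BM CD44low cells 2236 to 2921 (higher 1290 to 1969, lower 828 to 1038). Where 1 library of a group remained, it was assumed to vary like the other groups. Members of the lists called against MFP numbered 192, and 182 to 196 without 1 library. Interferon-stimulated genes called lower moved from 3 to 1 without the first and to 5 without the second MFP library, and cholesterol synthesis genes called lower from 4 to 6 without the second MFP library. Over all barcodes, summed fibroblast markers in single lung CD44low cells fell from 82.7 to 74.8 per 10000. Nothing in the labels ties a replicate number to 1 mouse across groups, and deviations of same-numbered libraries correlated at -0.12 between lung CD44low and MFP cells and at -0.25 to 0.21 over the 6 groups set beside lung CD44low, so the numbers were not taken as pairs. A replicate block gave 2880 calls. TPM carries no depth, so counting error in bulk could not be given.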

Other observations

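Several gene families were counted whole by symbol. They were chosen after values were seen, so they are given as counts with no test. A member that passed the TPM filter through 1 group alone could be called in 1 direction only. Against MFP 13% of all genes rose and 8.9% fell, and of genes present in both groups 8.51% rose and 5.99% fell. Of 10 genes of the Hoxb cluster, 7 were tested, each through lung CD44low cells alone, and 6 rose, with *Hoxb5* at 36.2 and 40.3 TPM, *Hoxb6* at 42.5 and 36.8 TPM and *Hoxb2* at 22.3 and 20.2 TPM in lung CD44low cells, each listed at 0 in the MFP and lung CD44high libraries. These genes set anterior-posterior position in the embryo. In the Hoxa cluster 4 of 6 tested genes rose, and 5 of the 6 passed through lung CD44low cells alone, and of 9 Hoxd genes 0 reached the TPM filter.

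Of 22 fibroblast growth factors 4 were tested, each through lung CD44low cells alone, and rose. *Fgf10*, a signal from lung mesenchyme to epithelium, had 341 and 410.2 TPM and was listed at 0 in MFP, and *Fgf7* had 210.0 and 198 TPM where MFP had 0.17 and 0.25 TPM. Of 5 collagen cross-linking lysyl oxidases 4 rose, 3 of them through lung CD44low cells alone, with *Lox* at 715 and 984 TPM and *Loxl1* at 53.1 and 76.7 TPM. Of 11 complement genes tested 9 rose, each through lung CD44low cells alone, among them *C1s1* (148 and 134 TPM), *C1ra* (153 and 129 TPM) and the inhibitor *Serping1* (35.6 and 32.4 TPM). Of 11 imprinted genes tested 8 rose, 3 of them among the 5 present in both groups, with *Grb10* at 187 and 269 TPM, and 1 fell, *Peg3*, with 0.18 and 0.44 TPM where MFP had 9.60 and 17.7 TPM. The ligands *Wnt7a* (51.2 and 40.05 TPM in MFP, listed at 0 in lung CD44low cells) and *Wnt7b* (44.6 and 41.5 TPM in MFP) were the 2 of 5 Wnt genes tested that fell, both through MFP alone.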
